A study of Mus musculus with 12 samples.

Results

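The response of wild-type (WT) bone marrow-derived macrophages (BMDMs) to lipopolysaccharide (LPS) was described across all genes, with weight on the genes that LPS lowered and on functions other than cytokines and interferon-stimulated genes. The comparison used 6 of the 12 RNA-seq libraries of the series, chosen by their genotype and treatment labels alone: 3 of untreated WT cells and 3 of WT cells treated with LPS, and 12656 genes were tested. All 6 came from C57BL/6 mice labelled wildtype, 8 to 12 weeks old, whose femur and tibia marrow had been cultured in medium with L929 cell-conditioned medium until adherent macrophages formed. No engineered allele is labelled for them. Untreated cells were compared with cells given LPS from *Escherichia coli* O55:B5 at 100 ng/ml for 4 h, and polyadenylated RNA was sequenced. The column headers place the untreated libraries at the start of the treatment, whereas the published methods describe 4 h of incubation for cells left untreated or treated. If untreated cells were collected at the start, time in culture cannot be told apart from LPS. The other 6 libraries were of macrophages lacking RasGEF1b (KO, Rasgef1b-fl/fl;CMVcre, in which Cre is driven by a promoter active in all tissues), with the same treatment, and were used for values set side by side and for a test of the genotype difference. The cells were a culture grown in the growth factor of L929 medium, at 1 dose and 1 time, so the values describe that culture and not macrophages in tissue.

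LPS, a glycolipid of the outer wall of Gram-negative bacteria, is sensed on macrophages by CD14, MD-2 and Toll-like receptor 4, which signal through MyD88 and TRIF to NF-kB, MAP kinases and interferon regulatory factors. The genes switched on in this way are the best known part of the response. A second arm lowers many transcripts of resting macrophages, among them receptors for survival and migration cues, regulators of growth and nutrient use, and genes of the cell cycle. Transcript levels can fall because a gene is transcribed less or because its RNA is degraded faster, and a single measurement of poly(A) RNA does not separate these.

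Between 20774591 and 24977356 reads lay in genes in the untreated libraries and between 19316691 and 20300050 after LPS. The deposited values were normalized counts, in which 1 read was worth 0.660 to 0.797 in untreated and 1.36 to 1.41 in LPS libraries, so a low level rests on fewer reads after LPS. The 8 macrophage markers were all tested, with *Cd14*, *Fcgr1* and *Mertk* higher after LPS and none lower, and their summed level was 261612 to 323497 untreated and 339103 to 392543 after LPS. Markers of T and NK cells summed to at most 1.41 normalized counts in any WT library, with 6 of 7 at 0 in all 6, and those of mast cells, basophils and erythroid cells to at most 7.92. The 8 dendritic cell markers summed to 17.99 to 32.3 untreated and 84.4 to 128 after LPS, those of neutrophils and progenitors to 282 to 652 and 345 to 728, and those of B cells to 33.9 to 70.1 and 46.4 to 59.8. Only 2 of the dendritic cell markers, *Xcr1* and *Clec9a*, had enough counts to be tested, and both were called higher. *Xcr1* had 2.77, 2.64 and 7.17 untreated and 40.8, 71.0 and 76.5 after LPS. Among stromal and endothelial markers, the VEGF receptor gene *Kdr* rose from 106 ± 28.3 to 808 ± 111 normalized counts and *Cdh5* rose from 13.4 ± 2.08 to 38.5 ± 8.57 normalized counts, a call lost under library total scaling (0.75). Among osteoclast markers 5 were tested and 1 was called, *Acp5*, which rose from 96.2 ± 26.9 to 949 ± 104 normalized counts. Of the 5, 40.0% had a log2 fold change below zero. *Dcstamp* had 739.7, 634 and 669.9 untreated and 544.7, 536 and 414.5 after LPS, while *Mmp9* had 1509, 1203 and 1027 untreated and 2518, 2051 and 1660 after LPS. The part of such cells in the results was not tested.

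LPS lowered 2136 genes and raised 2158, which was 16.9% and 17.1% of the genes tested, where a change was called at an adjusted p under 0.05 by limma and a change of at least 2-fold. Every count of genes in a list given here is to be read against these shares. The 2 directions differed in depth more than in number. The median called-lower gene had a log2 fold change of -1.64 and the median called-higher gene of 2.15. Of the lower genes, 717 fell by at least 4-fold (2 on the log2 scale), 94 fell by at least 4 on the log2 scale and 32 by at least 5, whereas 1175, 371 and 219 genes rose by as much. In 2128 of the lower genes the 3 LPS libraries lay below all 3 untreated libraries. Genes whose groups did not overlap made up 38.6% (lower) and 38.3% (higher) of all genes tested.

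The lowered genes were mostly transcripts of low and middle abundance. Among the quartile of genes with the lowest mean over both groups 28.4% were called lower, in the next quartile 23.1%, in the third 10.7% and in the highest 5.21%, and 29.6% of that highest quartile were called higher. Because the mean includes the LPS libraries, the change itself moves a gene between quartiles. Untreated, the lower genes held 7.96% to 8.28% of each library's reads, and after LPS 1.45% to 1.58%. The higher genes held 12.1% to 12.9% of the reads untreated and 42.9% to 45.2% after LPS. The scale chosen for the libraries decides where zero change lies. On the authors' scale the median gene tested changed by -0.02 on the log2 scale and 49.7% of the calls were lower. Scaling to the upper quartile moved that median to -0.34 and the share of lower calls to 63.6%, and scaling to the library total moved them to -0.74 and 77.6%. All 2136 lower genes were still called lower on both of these scales, and 86.6% were after quantile normalization. Upper quartile and library total scaling shift every gene down after LPS, so lower calls could hardly be lost on them. For list medians below zero, given further on, only quantile normalization could likewise have gone the other way.

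**Figure D1:**
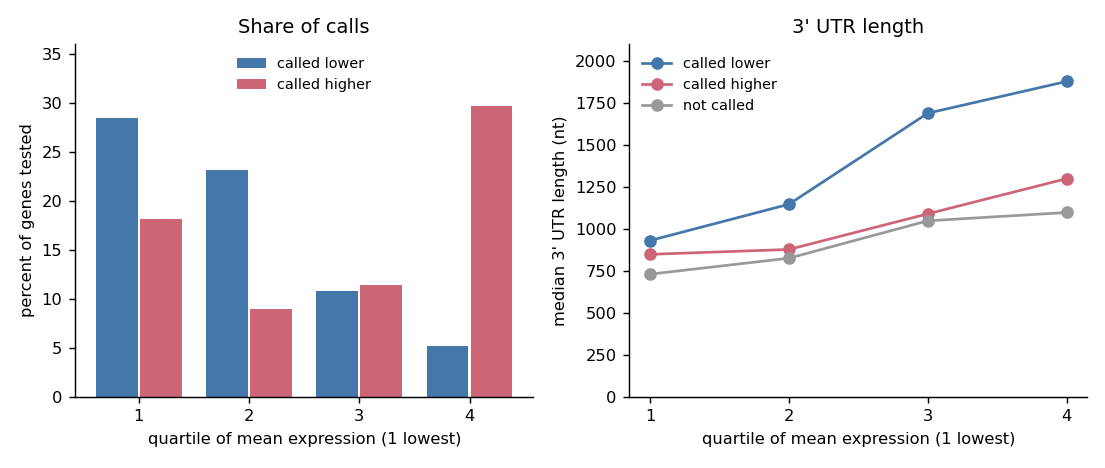
Percentage of genes called lower or higher after LPS in each quartile of mean expression (left), and median 3' UTR length in bases of genes called lower, higher or not called in the same quartiles (right), for WT macrophages. The share of lower genes falls from 28.4% in the lowest quartile to 5.21% in the highest, where 29.6% were called higher.

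The deepest losses among genes with at least 100 normalized counts untreated included surface receptors, transcription factors, a nutrient sensor and a potassium channel. *Cxcr4*, the receptor for the chemokine CXCL12 that holds leukocytes in the bone marrow, had 1302, 1344 and 1652 normalized counts in the untreated libraries and 15.5, 5.46 and 8.35 after LPS (log2 fold change -7.16, SE 0.29, limma adjusted p = 2.9e-08). Its LPS libraries held 0.681% of the untreated mean. The largest fold was that of *Gm15513*, an RNA annotated as sense intronic (GRCm38, chr5:34211810-34213802, minus strand), with 904 reads in the 3 untreated libraries together and 1 read in the 3 LPS libraries. That is a ratio of normalized counts of 467 with a 95% counting interval of 83.5 to 18448.5, so the size of the loss is poorly bounded. *Sesn1*, which encodes a leucine sensor that restrains mTORC1, had 3805, 3994 and 4423 untreated and 84.4, 101 and 84.9 after LPS (log2 fold change -5.49, SE 0.09, limma adjusted p = 1.95e-10), and its lowest untreated library lay far above its highest LPS library.

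Other surface genes of this set fell less deeply than *Cxcr4*. The levels of *Cnr2*, the cannabinoid receptor of leukocytes, were 665, 671 and 637 untreated and 14.1, 8.19 and 11.1 after LPS (log2 fold change -5.79, SE 0.19, limma adjusted p = 6.48e-09). *Gpr183*, whose product guides cells along oxysterol gradients, fell from 366 ± 4.48 to 8.79 ± 2.92 normalized counts, and in the same cells *Ch25h*, the enzyme that makes the precursor of its ligand, rose from 9.16 ± 1.95 to 623 ± 151 normalized counts (log2 fold changes -5.28 and 5.93). *Kcnj2*, an inward-rectifying potassium channel that sets the resting membrane potential, had 1287, 1184 and 1069.8 untreated and 23.9, 24.6 and 25.0 after LPS (log2 fold change -5.53, SE 0.11, limma adjusted p = 3.82e-10).

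The promoter of *Cxcr4* is shown because this was the receptor with the deepest loss. That of *Fam214a* is shown because it was among the deepest-falling genes with an E-box match, and that of *Irs2* among those with an E2F match. Each run holds the 250 bases before the RefSeq start on GRCm38.p6, read 5′ to 3′ on the strand of the gene. Capitals mark matches, on either strand, to motifs of 5 kinds. The E2F motif was searched as TTTCCCGC. The cell cycle homology region (CHR) of late cell cycle genes was searched as TTTGAA. The E-box of MYC, USF and the clock was searched as CACGTG, the CCAAT box bound by NF-Y as CCAATC, and the TATA box as TATAAA.
Cxcr4, chr1:128592300-128592549, minus strand: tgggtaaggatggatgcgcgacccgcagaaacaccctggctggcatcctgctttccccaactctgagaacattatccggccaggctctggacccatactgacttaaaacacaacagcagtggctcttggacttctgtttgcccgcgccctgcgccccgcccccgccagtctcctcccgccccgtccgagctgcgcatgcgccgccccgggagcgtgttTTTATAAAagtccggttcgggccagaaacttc
Fam214a, chr9:74952630-74952879, plus strand: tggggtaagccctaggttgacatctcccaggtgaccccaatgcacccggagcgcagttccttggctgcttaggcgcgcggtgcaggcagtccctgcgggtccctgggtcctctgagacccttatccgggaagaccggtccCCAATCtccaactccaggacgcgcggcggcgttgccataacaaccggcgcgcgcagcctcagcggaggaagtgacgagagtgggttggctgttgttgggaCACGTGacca
Irs2, chr8:11008930-11009179, minus strand: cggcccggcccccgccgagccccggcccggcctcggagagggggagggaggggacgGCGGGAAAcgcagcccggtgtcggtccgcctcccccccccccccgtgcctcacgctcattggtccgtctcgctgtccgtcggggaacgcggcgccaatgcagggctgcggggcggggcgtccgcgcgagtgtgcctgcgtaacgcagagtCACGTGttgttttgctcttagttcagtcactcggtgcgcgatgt
In *Cxcr4* overlapping TATA box matches, 1 on each strand, begin 32 and 30 bases before the start. In *Fam214a* a CCAAT box match begins 110 bases before the start and the E-box 10 bases before it. In *Irs2*, the adaptor of insulin and IL-4 receptors, the E2F match begins 194 bases and the E-box 44 bases before the start. *Fam214a* had 655, 657 and 784 untreated and 9.85, 6.82 and 16.7 after LPS (log2 fold change -5.93) and *Irs2* had 216, 178 and 219.8 untreated and 16.9, 13.6 and 15.3 after LPS (-3.66). Over all 9570 tested genes with a promoter in the RefSeq table, windows of 300 bases held the TATA box letters in 7.03%, the E-box in 10.4% and the E2F motif in 2.27%. Among genes called lower these shares were 6.38%, 10.8% and 3.31%, and among genes called higher 10.7%, 9.34% and 1.48%. A match describes the letters and not a bound site.

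Transcription factors and cofactors made up a further group of deep losses. *Cebpa*, a factor that drives myeloid differentiation, kept 1.71% of its untreated mean. *Lyl1*, a basic helix-loop-helix factor of blood stem and progenitor cells, fell from 1474 ± 38.4 to 33.8 ± 8.11 normalized counts (log2 fold change -5.43, SE 0.15, limma adjusted p = 2.52e-09). *Sox4* fell from 336 to 4.66 normalized counts and *Irf2bp2*, a corepressor, from 1399.8 to 25.5. For these last 2 genes, 54.6% and 20.5% of the exonic length is shared with an annotated gene on the opposite strand, and whether counting used strand is not given in the sources used here. Among genes described further on, the same overlap covers 25.6% of *Rab20* and between 14.7% and 21.2% of *Psmc3ip*, *Cebpb*, *Dll1*, *Atg4d*, *Hspa1a*, *Cnn3*, *Sqstm1*, *Cebpd* and *Psmb8*. *Bmf*, which encodes a pro-apoptotic BH3-only protein, fell from 269.8 ± 41.4 to 5.06 ± 2.80 normalized counts (log2 fold change -5.57). Of the remaining genes in this set, *Slc26a11*, an anion transporter, *Plekhg3*, a guanine nucleotide exchange factor, *Ccsap*, a centriole and spindle protein, *Lhfpl2*, *Tmem86a*, a lysoplasmalogenase, and *Depdc7* had log2 fold changes of -6.44, -6.42, -6.12, -5.64, -5.34 and -5.29. In all 20 genes the groups did not overlap, which the choice of the set required.

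**Figure D2:**
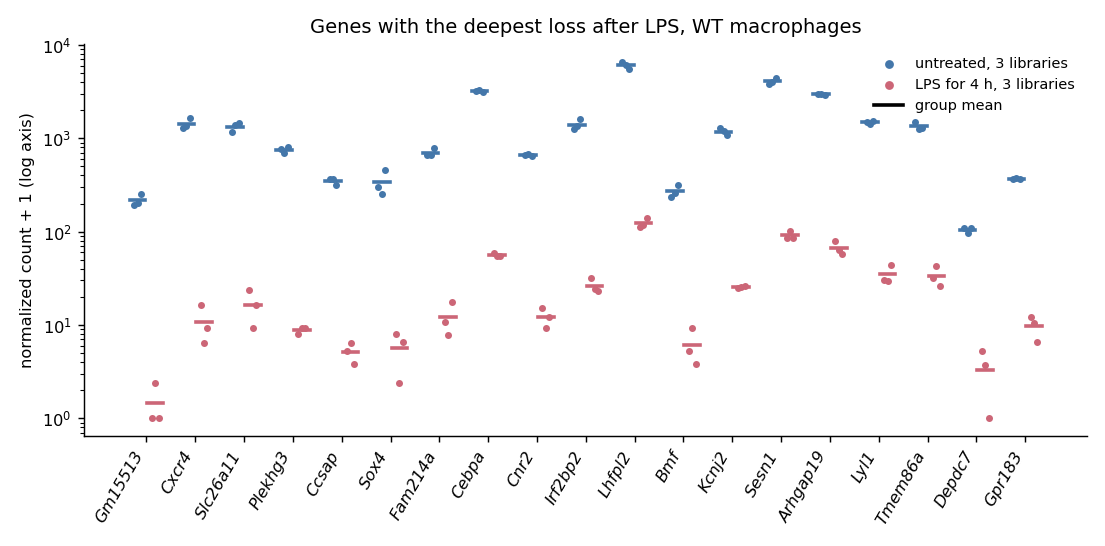
Normalized count + 1 on a log axis of 19 of the 20 genes with the most negative log2 fold change among those with an untreated mean of at least 100, 1 point per library, for the 3 untreated and 3 LPS libraries of WT macrophages. Lines mark the group means, and in every gene drawn all LPS points lie below all untreated points, with log2 fold changes from -7.34 for Gm15513 to -5.28 for Gpr183.

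Genes with the largest losses in normalized counts were a largely different set, with 1 gene, *Lhfpl2*, in both, and most fell by smaller folds. *Plau*, which encodes the protease urokinase, had 27894, 28744 and 23991 normalized counts in the untreated libraries and 5668, 5169 and 3832 after LPS (log2 fold change -2.47, SE 0.13, limma adjusted p = 1.93e-07). In the same cells the urokinase receptor gene *Plaur* rose from 2111 to 5455 normalized counts (log2 fold change 1.36, 0.63 to 0.67 and not called under quantile and library total scaling). *Rab7b*, a GTPase of late endosomes, went from 8208 ± 561 to 714 ± 49.0 normalized counts, *Cd300lb*, an activating receptor of myeloid cells, from 6645 ± 87.4 to 175 ± 17.3 normalized counts, and *Lhfpl2* from 6105 ± 511 to 122 ± 16.2 normalized counts. *Slc43a2*, a neutral amino acid transporter, *Dhrs3*, which reduces retinal, and *Slc37a2*, a sugar phosphate exchanger of the endoplasmic reticulum, had log2 fold changes of -2.23, -1.78 and -1.43. *Wwp1*, a ubiquitin ligase, *Atp13a2*, a lysosomal polyamine exporter, and *Hmox1*, which degrades heme, fell by smaller folds from high levels (-1.34, -1.16 and -1.15), and *Hmox1* had 11101, 11884 and 11172 untreated and 5451, 5343 and 4669.9 after LPS.

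Genes of cell division were lowered widely and to a moderate depth. Of 51 mitotic genes tested, 35 fell and 0 rose, with a median log2 fold change of -1.57. Of 58 genes of DNA replication and origin licensing, 25 fell and 3 rose (median -0.85), and of 73 DNA repair genes 34 fell and 2 rose (median -0.90). Over the 3 other scalings these medians ran from -2.29 to -1.502, -1.58 to -0.83 and -1.63 to -0.74. The upper ends are those of quantile normalization, the only one of the 3 that does not shift every gene down. With each library left out in turn 33 to 37 mitotic genes were called lower, and 1 was called higher without untreated replicate 2.

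Within mitosis the losses were deepest for *Ccnf*, an F-box protein of G2 that had 441, 533 and 411 untreated and 22.5, 23.2 and 23.6 after LPS (log2 fold change -4.25, SE 0.14, limma adjusted p = 6.91e-09). The kinesins *Kif18a* and *Kif23*, which act on chromosome alignment and in cytokinesis, had log2 fold changes of -3.68 and -3.47, and *Cenpf*, a kinetochore protein, and *Cdc25b*, the phosphatase that starts mitosis, of -2.95 and -2.94. *Top2a*, which untangles chromosomes, fell less and had 2467, 3029 and 2409 untreated and 1144, 1365 and 1006 after LPS (log2 fold change -1.17, SE 0.12, limma adjusted p = 1.7e-05). Summed over the 51 genes, the level after LPS was 64.4% of the untreated sum, 22046 to 26099 against 35926 to 41395 normalized counts. In bulk samples fewer cells of a type and less RNA per cell cannot be told apart, here fewer dividing cells and less of these transcripts in each. Summed in the same way, replication genes stood at 88.4% of the untreated level and repair genes at 81.4%. Of lists described further on, the clock stood at 98.1%, nutrient control at 114.6% and autophagy at 121.7%, so their summed level did not follow their medians.

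In replication both regulators and enzymes fell. *E2f2* fell from 274 ± 33.8 to 11.1 ± 2.94 normalized counts, *Cdc6*, which loads the replicative helicase, from 204 ± 49.8 to 13.4 ± 9.51 normalized counts, and *E2f7*, a repressor of the E2F family, from 142 ± 18.3 to 17.97 ± 8.83 normalized counts (log2 fold change -3.02, SE 0.32, limma adjusted p = 2.16e-05). *Gmnn*, which blocks relicensing, and *Pole2*, a polymerase subunit, had log2 fold changes of -2.81 and -2.71. The 3 genes that rose were *Rbl1* (2.698) and *E2f5* (1.52), members of the repressive side of the pathway, and *Rfc3* (1.16), a clamp loader subunit. On the library total scale *Rbl1* kept its call, and *E2f5* (0.80) and *Rfc3* (0.43) lost theirs. In repair the losses took in base excision (*Neil2*, -3.58, and *Ung*, -3.32), homologous recombination (*Brca2*, -3.32, and *Brca1*, -3.18) and the exonuclease *Exo1* (-3.20). *Atm*, the kinase that signals double-strand breaks, rose from 479.6 ± 27.2 to 1847 ± 131 normalized counts, and the helicase gene *Wrn* rose from 639 ± 28.4 to 1701 ± 116 normalized counts, though under library total scaling the change of *Wrn* was 0.69 and not called.

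The promoters of *Arhgap19*, *Top2a* and *E2f7* are shown because their windows carry motifs that were frequent in the cell cycle lists. The runs are read and marked as above.
Arhgap19, chr19:41802085-41802334, minus strand: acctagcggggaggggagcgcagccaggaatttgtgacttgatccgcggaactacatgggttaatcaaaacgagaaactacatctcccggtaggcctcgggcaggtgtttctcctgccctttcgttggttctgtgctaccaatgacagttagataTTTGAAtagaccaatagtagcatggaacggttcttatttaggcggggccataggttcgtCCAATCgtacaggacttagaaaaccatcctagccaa
Top2a, chr11:99024190-99024439, minus strand: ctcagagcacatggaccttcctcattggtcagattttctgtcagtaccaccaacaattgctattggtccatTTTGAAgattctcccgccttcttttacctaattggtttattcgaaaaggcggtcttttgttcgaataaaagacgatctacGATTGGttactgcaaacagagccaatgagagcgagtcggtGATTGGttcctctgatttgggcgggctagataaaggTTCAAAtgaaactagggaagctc
E2f7, chr10:110745189-110745438, plus strand: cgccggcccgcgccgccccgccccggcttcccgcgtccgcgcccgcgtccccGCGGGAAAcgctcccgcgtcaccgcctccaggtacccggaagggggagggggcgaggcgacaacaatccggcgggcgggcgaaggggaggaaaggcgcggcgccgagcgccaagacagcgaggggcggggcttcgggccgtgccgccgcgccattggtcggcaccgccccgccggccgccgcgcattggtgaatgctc
*Arhgap19*, a GTPase activating protein with a role in cytokinesis and among the 20 deepest losses, had 2998, 2951 and 2919 untreated and 78.8, 62.8 and 57.0 after LPS (log2 fold change -5.47). Its window has a CHR match 95 bases and a CCAAT box match 36 bases before the start. That of *Top2a* has CHR matches 179 and 23 bases and CCAAT matches 99 and 59 bases before the start, and that of *E2f7* an E2F match 198 bases before it. The CHR letters were present in 29 of 43 mitotic promoters (67.4%), against 12.2% of all promoters tested and 14.01% of those of all lower genes. Genes called lower held 29 of the 43 mitotic promoters, and 22 of those 29 had the CHR letters. The CCAAT box was present in 23 of 43 mitotic promoters (53.5%) and 20 of 47 replication promoters (42.6%), against 21.4% of all. Among the lower genes of these lists it was present in 15 of 29 and 9 of 22, close to the shares of the whole lists. The E2F motif was present in 10 of 47 replication promoters (21.3%) and in 0 of 43 mitotic ones. Among all lower genes the CCAAT box and the E2F motif were present in 24.0% and 3.31%. The CCAAT box was also frequent in lists outside the cell cycle, in 14 of 19 promoters of cholesterol synthesis genes (73.7%) and 17 of 29 of the unfolded protein response and heat shock list (58.6%), and 0 and 2 of those with the motif were called lower.

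Of 20 circadian clock genes tested, 12 fell and 1 rose, with a median log2 fold change of -1.61. The clock is a loop in which CLOCK, NPAS2 and BMAL1 (*Arntl*) activate genes through E-boxes, PER and CRY proteins and the BHLHE40 and BHLHE41 factors repress them, and REV-ERB (*Nr1d1*) and ROR (*Rora*) set the level of *Arntl*. Activators, repressors and output factors all had members that fell. *Bhlhe41* had 943, 826 and 744 normalized counts in the untreated libraries and 40.8, 50.5 and 45.9 after LPS (log2 fold change -4.16, SE 0.13, limma adjusted p = 4.24e-09), with 19.0% of its exonic length shared with a gene on the opposite strand. *Bhlhe40* fell from 756 ± 84.0 to 66.1 ± 15.05 normalized counts. The output factor gene *Dbp* had 368, 418 and 578 untreated and 25.3, 36.8 and 34.8 after LPS and *Nr1d1* 75.4, 86.5 and 112 untreated and 7.04, 8.19 and 5.56 after LPS (log2 fold changes -3.76 and -3.53). These genes share 18.01% and 8.55% of their exonic length with an opposite-strand gene.

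*Per1* had 545, 498 and 612 untreated and 46.4, 62.8 and 69.6 after LPS (log2 fold change -3.20, SE 0.16, limma adjusted p = 1.02e-07), and *Tef*, an output factor related to DBP, fell from 1254 ± 161 to 171 ± 14.2 normalized counts. *Per2*, *Per3*, *Npas2*, *Rora*, *Arntl* and *Csnk1e*, the kinase that marks PER for degradation, had log2 fold changes of -2.88, -1.98, -3.36, -2.36, -1.24 and -1.18, and *Arntl* was not called after quantile normalization (-0.95). The gene that rose was *Nfil3*, a repressor that competes with DBP and TEF for the same sites, from 183 ± 26.5 to 1518 ± 46.3 normalized counts (log2 fold change 3.05, SE 0.10, limma adjusted p = 7.52e-09). *Clock* was not called (from 886 to 838 normalized counts, log2 fold change -0.08), nor were *Cry1* (0.45) and *Cry2* (-0.67). The median was -1.43 after quantile normalization and lower still, down to -2.33, on the scalings that shift every gene down. With a library left out 11 to 13 genes were called lower. The E-box was present in 5 of 16 clock promoters (31.25%) and the CCAAT box in 10 of 16 (62.5%). Clock transcripts also vary with time, and whether untreated cells were kept for the same time is not settled. The part of time in culture in these changes was not tested.

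**Figure D3:**
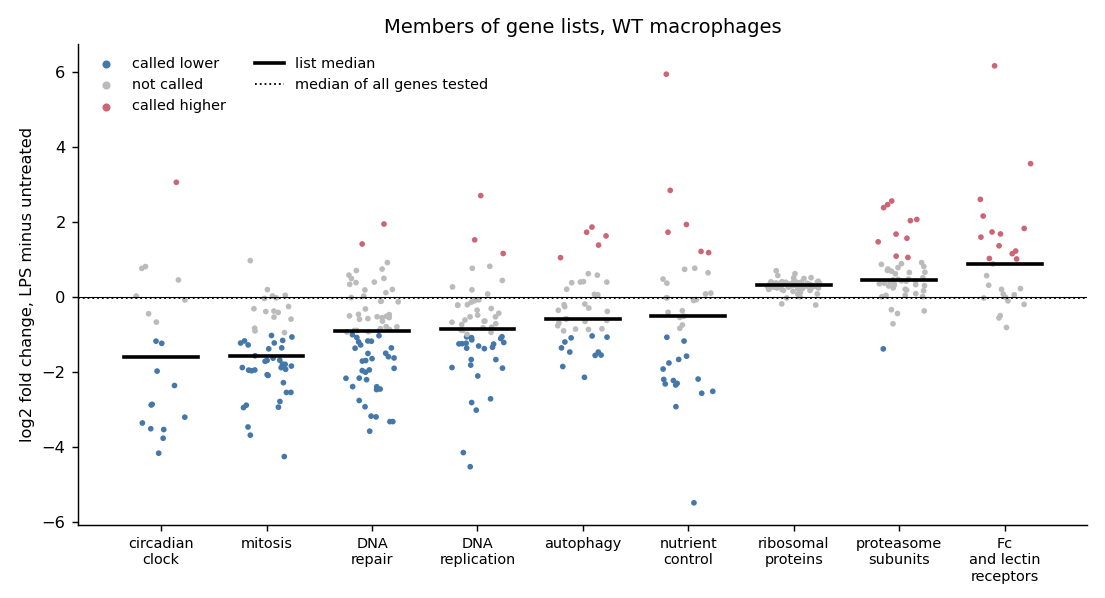
Log2 fold change (LPS minus untreated, WT macrophages) of each tested member of 9 gene lists, 1 point per gene, coloured by call, with a line at the list median and a dotted line at the median of all genes tested. Clock, mitosis, repair, replication, autophagy and nutrient control members lie mostly below zero, while cytosolic ribosomal proteins form a narrow band near 0.31 and Fc and lectin receptors lie mostly above zero.

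Transcription factors of the macrophage lineage split. Of 29 tested, 10 fell and 11 rose. Beside *Cebpa*, the lipid and retinoid receptors *Pparg* and *Rxra* fell from 1138 to 192 and from 1136 to 165 normalized counts. *Fli1* and the MEF2 genes *Mef2d* (-2.77), *Mef2c* (-1.95) and *Mef2a* (-1.24) also fell. The C/EBP family moved apart. *Cebpd* rose from 193 ± 26.7 to 4464 ± 1113 normalized counts and *Cebpb* rose from 841 to 3772 normalized counts. The MiT/TFE family, which controls lysosome and autophagy genes, moved apart as well. *Tfeb* had 959.8, 968 and 963 normalized counts in the untreated libraries and 50.7, 47.8 and 82.1 after LPS (log2 fold change -4.02, SE 0.18, limma adjusted p = 5.81e-08), *Tfec* rose from 423 ± 37.2 to 2651 ± 182 normalized counts, *Mitf* rose from 1983 to 4401 normalized counts (1.15, but 0.43 to 0.83 and not called under the 3 other scalings), and *Tfe3* did not reach the 2-fold limit (from 2414 to 1686, -0.52).

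Among the factors that rose, *Ikzf1*, known from lymphoid cells, rose by 3.93 on the log2 scale and *Irf8* by 3.49. *Gfi1* had 2 reads untreated and 63 after LPS in all, a ratio of 61.0 with a counting interval of 16.2 to 515. Among 83 histone and DNA modifying enzymes the directions were even, 13 lower and 13 higher. The largest were *Hdac5*, a class IIa deacetylase that binds MEF2 factors, from 2177 ± 101 to 293 ± 32.2 normalized counts, and *Setdb2*, a histone methyltransferase, which rose from 220.0 ± 40.2 to 3511 ± 418 normalized counts. *Kmt5c* (-2.60) and *Kat6b* (-2.19) fell, and *Tet2*, which oxidises methylcytosine, rose by 2.38.

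Genes that report or restrain nutrient use fell more often than they rose. Of 39 genes of amino acid and nutrient control 16 fell and 6 rose (median -0.52), and of 41 autophagy genes 11 fell and 5 rose (median -0.58). After quantile normalization the medians were -0.70 and -0.69, and the scalings that shift every gene down took them as far as -1.24 and -1.31. Many of the lower genes encode parts that hold mTORC1 back: *Sesn1*, *Sesn2* (-2.20), *Ddit4* (-2.35), *Castor1* (-1.67), *Deptor* (-1.58) and *Tsc1* (-1.18). Others act in its activation on the lysosome. *Flcn*, a GTPase activator for RagC and RagD, fell from 2208 ± 231 to 373 ± 52.0 normalized counts, and *Rragd*, which encodes RagD, from 339 ± 44.0 to 59.7 ± 16.2 normalized counts (log2 fold change -2.52, SE 0.21, limma adjusted p = 3.36e-06). *Trib3*, a pseudokinase of the stress response, had 137, 107 and 68.5 untreated and 14.1, 9.55 and 13.9 after LPS (log2 fold change -2.92).

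Amino acid transporters went both ways. *Slc7a2*, which imports arginine, had 127, 117 and 112 normalized counts in the untreated libraries and 9535, 6617 and 6190.3 after LPS (log2 fold change 5.93, SE 0.15, limma adjusted p = 1.23e-09), and *Slc7a11*, the cystine importer, rose from 31.7 ± 6.48 to 231 ± 29.4 normalized counts. *Slc38a2*, a glutamine importer, fell by 2-fold or more (-2.23). In autophagy *Atg9b* (-2.14), *Tecpr1* (-1.85), *Atg2b* (-1.56), *Nbr1* (-1.55) and *Ulk1* (-1.47), which span initiation, membrane supply, fusion and cargo binding, fell. The 5 that rose were mainly cargo receptors: *Optn* (1.86), *Tax1bp1* (1.63) and *Sqstm1* (1.38), with *Atg16l1* (1.72) and *Atg4d* (1.05, 0.94 and not called without LPS replicate 1). The calls of *Tax1bp1* and *Sqstm1* were lost under quantile and library total scaling (0.31 to 0.90), and those of *Atg16l1* and *Atg4d* under library total scaling (0.998 and 0.32), that of *Atg4d* also under upper quartile scaling (0.73). Lysosomal enzymes themselves stayed largely under the limit, with 2 of 54 lower and 6 higher.

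**Figure D4:**
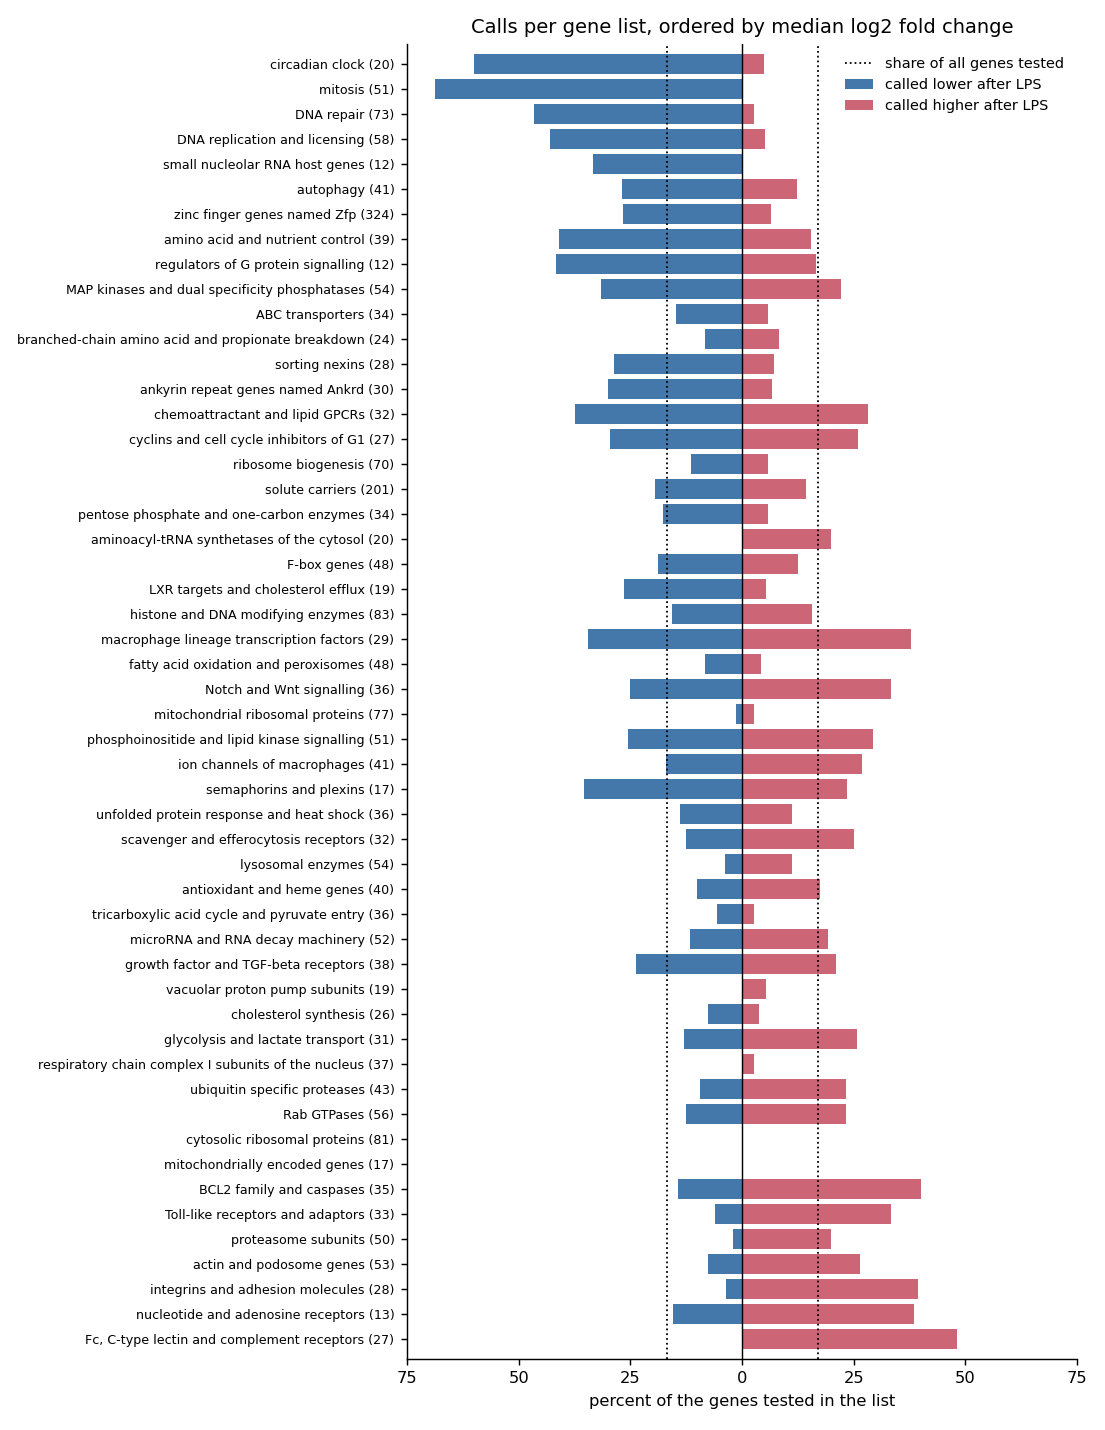
Percentage of tested members called lower (left of zero) and higher (right of zero) in the gene lists drawn, for WT macrophages after LPS. The dotted lines mark the shares of all genes tested, 16.9% lower and 17.1% higher, and mitosis, clock, repair and replication extend furthest beyond the lower line.

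Receptors for migration cues were divided between loss and gain. Of 32 G protein-coupled receptors for chemokines, chemoattractants and lipids, 12 fell and 9 rose. *S1pr1*, the receptor for sphingosine 1-phosphate that directs cells out of tissue, had 897, 1027 and 1015 untreated and 32.4, 36.8 and 23.6 after LPS (log2 fold change -4.96, SE 0.16, limma adjusted p = 6.54e-09). The lysophosphatidic acid receptors *Lpar5* and *Lpar6* had log2 fold changes of -4.93 and -4.47, while another, *Lpar1*, rose by 6.07. The formyl peptide receptor *Fpr2* rose from 2.35 ± 1.63 to 817 ± 269 normalized counts and *Gpr84*, a receptor for medium-chain fatty acids, from 9.30 ± 4.44 to 982 ± 73.5 normalized counts, with 39.5% of its exonic length shared with an opposite-strand gene. *Adora2a*, an adenosine receptor that dampens inflammation, had 0, 1.3202 and 1.59 untreated and 887, 787 and 1002 after LPS, and *P2ry1*, an ADP receptor, fell by 3.02 on the log2 scale (23.1% shared).

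Growth factor genes also moved both ways, with 9 of 38 lower and 8 higher. *Vegfa*, the angiogenic factor, had 2473, 2325 and 2589 normalized counts in the untreated libraries and 148, 105 and 236 after LPS (log2 fold change -3.99, SE 0.24, limma adjusted p = 3.39e-07). *Pdgfb* fell from 1871 ± 68.3 to 102 ± 14.1 normalized counts. *Smad3*, a transducer of TGF-β, fell from 186 ± 12.6 to 6.94 ± 2.40 normalized counts, and *Smad7*, an inhibitor of the same pathway, fell by 3.77 on the log2 scale. *Inhba*, a subunit of activin, rose from 6.56 ± 1.76 to 97.1 ± 8.22 normalized counts. Transcripts of other surface proteins were counted by class. Of 27 Fc, C-type lectin and complement receptors 13 rose, among them *Clec4e* (Mincle, 6.16), *Fcgr4* (3.55), *Fcgr1* (2.60) and the inhibitory *Fcgr2b* (2.15), though the median of the list, 0.88, was -0.02 after quantile normalization. Of 28 integrins and adhesion molecules 11 rose, led by *Icam1* (5.65) and *Vcam1* (5.52), though the median of 0.61 became -0.16 and -0.12 under quantile and library total scaling. Among Toll-like receptors and adaptors, 11 of 33 rose, *Tlr3* by 3.91 and *Tlr2* by 3.63, while *Tlr13*, a sensor of bacterial ribosomal RNA, fell from 6114 ± 419 to 1475 ± 134 normalized counts. *Tlr4* itself had a log2 fold change of -0.35, under the limit of size.

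Feedback regulators of signalling fell and rose within the same families. Of 54 MAP kinase and dual specificity phosphatase genes 17 fell and 12 rose (median -0.35, -1.08 to -0.36 on the other scalings). The phosphatases *Dusp6* and *Dusp4*, which switch off ERK, fell from 1567 ± 136 to 133 ± 16.8 normalized counts and from 683 ± 91.6 to 57.7 ± 15.7 normalized counts. *Dusp2* and *Dusp1* rose by 5.85 and 3.16 on the log2 scale, as did *Map3k8*, the kinase TPL2, by 3.28. In the phosphoinositide pathway, 13 of 51 genes fell and 15 rose. *Foxo3*, a transcription factor that AKT holds inactive, had 2034, 2006 and 2499.6 untreated and 113, 179 and 242 after LPS (log2 fold change -3.67, SE 0.23, limma adjusted p = 5.57e-07). *Inpp5d*, the phosphatase SHIP1, fell from 4169 ± 197 to 679 ± 82.2 normalized counts, and *Dgka*, a diacylglycerol kinase, rose from 239 ± 48.7 to 2718 ± 367 normalized counts.

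Actin genes rose more often than they fell, with 14 of 53 higher and 4 lower, and their median of 0.45 became -0.53 and -0.27 under quantile and library total scaling. *Fscn1*, which bundles actin, rose from 4.50 ± 1.61 to 1370.5 ± 269 normalized counts, and *Zyx*, a focal adhesion protein, by 3.26 on the log2 scale, while *Fmnl3* and *Myo7a* fell (-2.84 and -1.75). In Notch and Wnt signalling 9 of 36 genes fell and 12 rose. The Notch ligand *Jag2* (-2.94) and the Fringe enzymes *Mfng* (-2.57) and *Lfng* (-2.11), which tune Notch for its ligands, fell. *Dll1* (5.38), *Fzd1* (3.31) and *Notch1* (2.68) rose.

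Metabolic genes were counted by pathway. Of 36 genes of the tricarboxylic acid cycle and pyruvate entry 2 fell and 1 rose, and of 48 genes of fatty acid oxidation and peroxisomes 4 fell and 2 rose. In glycolysis 4 of 31 fell and 8 rose. The glucose transporter *Slc2a6*, *Pfkfb3*, which raises the activator of phosphofructokinase, and *Hk2* rose (5.59, 3.23 and 2.69), whereas *Slc2a3* and *Pfkfb2* fell (-1.80 and -2.42). Genes under the sterol receptor LXR included 5 that fell among 19. *Arl4c* had 1917, 2359 and 2950.4 untreated and 87.3, 113 and 87.6 after LPS (log2 fold change -4.62, SE 0.16, limma adjusted p = 9.53e-09), and the cholesterol exporter gene *Abca1*, *Soat1*, which esterifies cholesterol, *Scd2* and *Mylip*, a ubiquitin ligase, had log2 fold changes of -1.07, -1.54, -2.82 and -1.56. *Abca1* was not called without untreated replicate 3 (-0.96).

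In the one-carbon and pentose phosphate list, 6 of 34 fell, including *Umps*, the last enzyme of pyrimidine synthesis (-2.22), and *Mtrr*, which reactivates methionine synthase (-1.98). *Upp1*, which breaks uridine down, was among the largest rises, with 3.46, 2.64 and 0.797 normalized counts in the untreated libraries and 1468, 1562 and 1434 after LPS. Of 40 antioxidant and heme genes 4 fell and 7 rose. *Slc40a1*, the iron exporter ferroportin, had 2992, 3052 and 3393 normalized counts in the untreated libraries and 182, 219.7 and 185 after LPS (log2 fold change -4.005, SE 0.09, limma adjusted p = 7.15e-10), next to the fall of *Hmox1*. *Gclc*, the limiting enzyme of glutathione synthesis, fell by 2.00 on the log2 scale, and *Sod2*, the superoxide dismutase of mitochondria, rose by 4.50.

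Of 201 solute carriers tested 39 fell and 29 rose, and of 41 ion channel genes 7 fell and 11 rose. The potassium channel *Kcnk13*, which carries a background current, fell from 1137 ± 45.2 to 113 ± 10.2 normalized counts, beside *Kcnj2*. The voltage-gated channel gene *Kcna3* rose from 16.9 ± 1.60 to 172 ± 22.0 normalized counts, and *Cacnb3* and *Clic4* rose by 5.95 and 3.19. Genes with symbols in the Rab series split into 7 lower and 13 higher of 56, led by *Rab7b* and, on the other side, *Rab11fip1* (3.34), which is an effector and not a GTPase, and *Rab20* (2.57). Sorting nexins counted 8 lower and 2 higher of 28.

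Relatives among genes that act on RNA went in opposite directions. *Zfp36l1*, which binds AU-rich elements and shortens the life of messenger RNAs, had 2890.5, 2815 and 4274 normalized counts in the untreated libraries and 78.8, 87.3 and 175 after LPS (log2 fold change -4.92, SE 0.28, limma adjusted p = 2.65e-07), with 55.9% of its exonic length shared with an opposite-strand gene. *Zfp36l2* fell by 1.79 on the log2 scale, whereas their relative *Zfp36* rose from 2492 ± 247 to 22781 ± 3620.4 normalized counts and the ribonuclease gene *Zc3h12a* rose from 269.8 ± 15.5 to 2574 ± 217 normalized counts. In all 6 of 52 genes of microRNA and RNA decay fell and 10 rose. Of 324 tested genes with the symbol Zfp, most of them zinc finger factors, 86 fell (26.5%) and 21 rose, with a median of -0.56 (-1.28 to -0.39 on the other scalings). The share called lower depends on level, and was 31.8% of coding genes in the lowest quartile of mean expression and 23.3% in the second. The share of Zfp genes lies between these and was not compared with genes of like level. *Zfp395* (-5.24) was among the deepest. *Zfp469*, a gene model annotated as a lincRNA, had 132 reads untreated and none after LPS, a level at least 22.7-fold lower. Small nucleolar RNA host genes had 4 lower and 0 higher of 12 (median -0.65, -1.34 to -0.44), led by *Snhg20* (-1.79) and *Snhg17* (-1.62). Their share was not compared with genes of like level either.

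Few genes of large protein complexes were called. None of 81 cytosolic ribosomal protein genes was called in either direction, although 72 had an adjusted p under 0.05 by limma for a rise (36.7% of all genes did), with a median of 0.31 that fell below zero under upper quartile, quantile and library total scaling. The 37 nuclear genes of complex I held 1 call, the 19 proton pump genes 1 and the 17 mitochondrially encoded genes 0. Of 50 genes of the proteasome series 10 rose (20.0%, close to the share of all genes) and 1 fell. *Psmb9*, *Psmb8* and *Psmb10*, the subunits of the immunoproteasome, and the activator subunit gene *Psme2* rose by 2.56, 2.06, 2.38 and 2.46, while the median of the list, 0.44, became -0.28 under library total scaling. The gene of this series that fell, *Psmc3ip* (-1.39), encodes a recombination factor and no proteasome subunit.

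Outside cytokines, chemokines and interferon-stimulated genes, the largest rises were spread over genes of several functions. *Cd69*, a lectin that keeps S1PR1 off the cell surface, had 15.9, 12.5 and 22.3 normalized counts in the untreated libraries and 33474, 35476 and 32945 after LPS (log2 fold change 10.92, SE 0.16, limma adjusted p = 1.03e-10), opposite in direction to *S1pr1*. *Edn1*, the vasoconstrictor endothelin 1, had 6.23, 3.30 and 3.98 untreated and 6605, 6954 and 7720.5 after LPS (log2 fold change 10.36, SE 0.18, limma adjusted p = 2.18e-10). *Lipg*, a lipase that cuts phospholipids of high density lipoprotein, rose from 11.7 ± 7.64 to 12992 ± 1820.3 normalized counts. *Adamts4*, a protease of proteoglycans, rose from 1.62 ± 0.713 to 2899 ± 178 normalized counts, and *Vcan*, which encodes the proteoglycan versican that such proteases cut, rose from 20.0 ± 5.18 to 9174 ± 299.9 normalized counts.

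*Mir155hg*, the host transcript of miR-155, had 0.692, 1.3202 and 3.19 untreated and 2936, 2591 and 2575 after LPS (log2 fold change 10.05), and *Socs3*, which blocks STAT3 signalling, rose from 36.8 ± 13.5 to 34494 ± 3790.2 normalized counts. *Hdc*, the enzyme that makes histamine, rose from 2.30 ± 1.36 to 1249 ± 103 normalized counts, and *Tarm1*, an activating receptor of myeloid cells, from 4.11 ± 1.27 to 1637 ± 104 normalized counts. *Cnn3*, an actin-binding protein, and *Asap3*, an ARF GTPase activator, both had log2 fold changes of 8.28, and *Heatr9* of 8.84. For these genes the untreated mean was under 40 normalized counts in all cases, so the size of the fold depends on the pseudocount of 1, and the groups did not overlap, which the choice of these genes required.

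**Figure D5:**
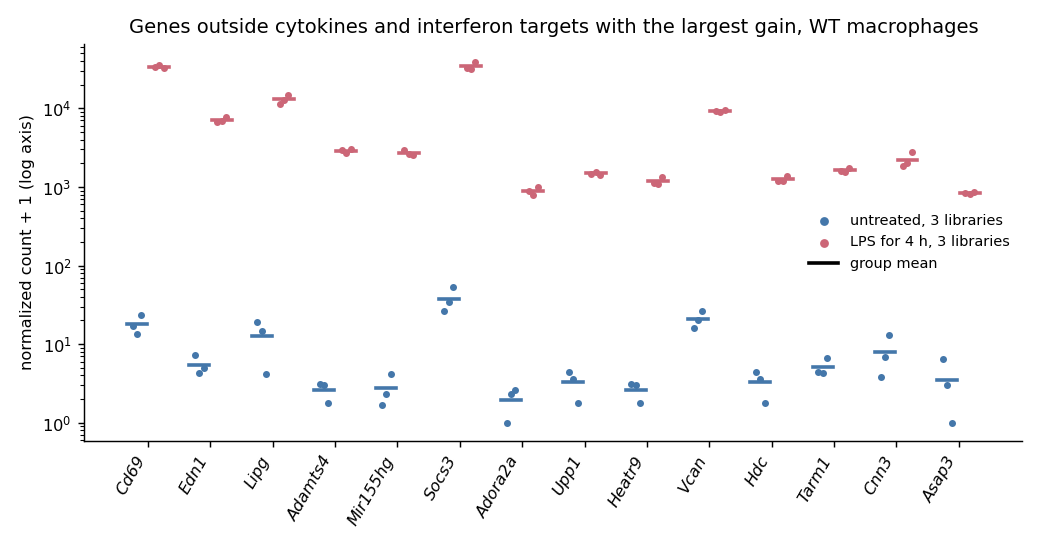
Normalized count + 1 on a log axis of 14 of the 15 genes with the largest log2 fold change outside cytokines, chemokines and interferon-stimulated genes, 1 point per library, for the 3 untreated and 3 LPS libraries of WT macrophages. All untreated points lie below all LPS points, and the log2 fold changes run from 8.28 for Asap3 to 10.92 for Cd69.

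Genes of cell death were raised more often than lowered, with 14 of 35 higher and 5 lower and a median of 0.38 that was -0.34 under library total scaling. The caspase genes *Casp12* (5.73) and *Casp4* (3.93) and the inhibitor *Cflar* (4.12) rose. The 3 near-identical copies of the survival gene *Bcl2a1* rose too, but reads can be shared between them, so their separate values are uncertain. *Bcl2*, another survival gene, fell from 258 ± 44.2 to 52.3 ± 15.01 normalized counts, as did *Bmf*, whose product opposes it. Among regulators of G1, *Myc* fell from 456 ± 49.0 to 58.7 ± 10.6 normalized counts (log2 fold change -2.95, SE 0.16, limma adjusted p = 1.6e-07), *Mycl* rose from 1.17 ± 0.322 to 335 ± 37.7 normalized counts, *Ccnd2*, a D-type cyclin, rose from 131 ± 25.0 to 9568 ± 1675 normalized counts, and the inhibitor gene *Cdkn1a* rose by 2.68.

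Classes of non-coding genes differed in their shares of calls. Of 11354 protein-coding genes tested 1864 (16.4%) were called lower, against 76 of 235 lincRNAs (32.3%), 50 of 158 processed transcripts (31.6%) and 64 of 273 antisense genes (23.4%). Of the antisense genes 79 (28.9%) were called higher. Antisense models lie on the strand opposite another gene, and the strand setting of counting is not given. Their counts may therefore include reads of that gene, which was not tested. Processed pseudogenes were called lower in 10 of 207 cases (4.83%) and gene models of the TEC class, which await experimental evidence, in 32 of 195 (16.4%). The lincRNAs, processed transcripts and antisense genes sit mostly at low levels, with 193 of the 235 lincRNAs in the lowest quartile of mean expression. In that quartile 31.8% of coding genes, 35.2% of lincRNAs, 37.0% of processed transcripts and 24.1% of antisense genes were called lower. Among 11262 genes with a coding transcript in GENCODE M21, the median 3' UTR was 1209.5 bases for lower genes, 1128 for higher genes and 942 for genes not called. In the highest quartile of mean expression it was 1877 bases for 165 lower genes, 1298.5 for 928 higher genes and 1097 for 2037 not called. ATTTA, a short form of the AU-rich element, was found at a median of 1.05 per 1000 bases of 3' UTR in the lower genes of that quartile, 1.67 in the higher and 1.43 in those not called. In the 2 lowest quartiles, which hold most lower genes, the order against genes not called was the other way, with 1.12 and 1.26 in lower, 1.15 and 1.34 in higher and 0.890 and 1.11 in genes not called.

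Set beside the same treatment of KO macrophages, nearly all of the lower genes were below zero there too. In KO cells 16.6% of 12732 genes were called lower and 17.3% higher. Of the 2136 genes lower in WT, 2105 were tested in KO, 2104 had a negative log2 fold change there and 1858 were called lower. The log2 fold changes in WT and KO were -7.16 and -6.75 for *Cxcr4*, -5.49 and -5.40 for *Sesn1*, -4.96 and -5.60 for *S1pr1*, -5.53 and -4.75 for *Kcnj2*, and -4.16 and -3.83 for *Bhlhe41*. For *Cd69*, *Edn1* and *Vcan* they were 10.92 and 10.17, 10.36 and 9.90, and 8.80 and 8.28. A test of the difference between the genotypes (limma interaction, adjusted p under 0.05) called 1 of 12711 genes (0.00787%), the chemokine gene *Ccl4*, and 0 of the 2122 lower genes it covered. At an unadjusted p under 0.05 it marked 537 of the 12711 genes. That share is below the 0.05 that would be marked if no gene differed. At the adjusted limit edgeR called 1, DESeq2 called 23 and limma with the replicate block 6. Limma called 3 without KO LPS replicate 1 or KO untreated replicate 1, and 2 without WT untreated replicate 2.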

How the data were processed

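Poly(A) RNA of 12 BMDM libraries (3 per genotype and treatment) was sequenced, and the 6 WT libraries were analysed here. Per the submitters' processing notes, the authors used bcl2fastq 2.17, Trimmomatic 0.39, STAR 2.7.4a with the mouse genome GRCm38, featureCounts of Subread 2.0.1 and DESeq2 1.32.0 in R 4.1.2. The strand setting of counting is not given in the sources used here. The deposited values are a signal, read counts per gene divided by DESeq2 size factors computed by the authors over all 12 libraries, given for 55487 gene models, of which 28110 had no read in the 6. Every value was a whole number of reads (100% within 1e-06 reads), so depths and reads were recovered. The labels and the published methods give different numbers of cells per well.

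Genes with a mean of at least 10 over the 6 libraries were compared on log2(normalized count + 1) with limma 3.58.1 (R 4.3.3, trended variance, unpaired) and Benjamini-Hochberg adjustment, and a gene was called at an adjusted p under 0.05 and a change of at least 2-fold. Fold changes on this scale understate changes of low genes. Errors are SD over 3 libraries or the SE of the fit. The study describes biological replicates, and the p-values measure the spread between these libraries. No pair of libraries of a group was a duplicate (chi-square per degree of freedom 4.50 to 18.4). The genotype difference was an interaction term over all 12 libraries. Deviations from the group means correlated between libraries of the same replicate number (r = 0.334, 0.19 and 0.227 across genes). Between others r was -0.233 to 0.0109, where centring on the group means makes some values negative once others are positive. The numbers were taken to pair the libraries. The main fits stayed unpaired, as in the study, and a fit with the replicate block was an alternative. The fits were tested on simulated data.

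Named were the 20 deepest losses from an untreated mean of at least 100, the 10 largest losses in normalized counts, the 15 largest rises outside an excluded list of cytokines, chemokines and interferon-stimulated genes, and up to 5 members of each list by size of change, with up to 2 that moved against the rest. Every other gene named, such as *S1pr1*, *Pparg*, *Rragd*, *Tef*, *Tfec*, *Top2a* and the PER genes, was named after their values were seen. Some genes are not reported here. The members and lists were chosen with earlier results of these data known. Positions and transcripts came from GENCODE M21 (GRCm38), promoters from RefSeq (GRCm38.p6, 9570 genes matched). Of the windows with a motif, only those without a GENCODE exon were printed. Motif searches used 300 bases, from 250 before to 50 after the start. Counting intervals are exact binomial at 95% and cover counting error only, with a floor of 3 reads over the group. Alternatives were edgeR 4.0.16 and DESeq2 1.42.0 on the recovered reads, other scalings, filters, pseudocounts, variance settings and leaving out each library.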

Additional observations from a re-analysis of the deposited data

Results flagged for a closer look

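The LPS response of the chemokine gene *Ccl4* differed between the genotypes by the limma interaction test (KO minus WT 0.93 on the log2 scale, adjusted p = 0.000369). Its log2 fold change was 5.16 in WT and 6.10 in KO cells, and it was the single gene called among 12711.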

How the results depend on the processing

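The counts of 2136 lower and 2158 higher genes stayed within 1.5 times of themselves under edgeR, DESeq2, other filters, pseudocounts and variance settings, upper quartile scaling and quantile normalization. On the recovered reads edgeR called 2226 lower and 2126 higher genes and DESeq2 2105 and 2181. The counts moved further in 3 cases. Scaling to the library total gave 4784 lower and 1379 higher genes, which follows from the shift of -0.74 in the median gene. With the adjusted p alone there were 4627 and 4639, and with a limit of 2 on the log2 scale 717 and 1175. Leaving out each library in turn gave 2017 to 2197 lower and 2058 to 2232 higher genes. With the replicate block, which uses the pairing of the replicate numbers, 2140 and 2159 genes were called. For the genotype difference the block gave 6 genes and DESeq2 gave 23 against 1, and leaving out each library gave 1 to 3, and the cause was not tested. Over the alternatives, 10607 values of lists and named genes kept their direction and call or stayed close, 431 such values moved, 174 gene calls were lost and 17 gained. No named gene that was called changed sign. On the scalings that shift every gene this could hardly occur, since a call needs at least 2-fold and the median gene moved at most to -0.74. List medians did change sign. Of 55 lists, 18 turned from above to below zero under upper quartile scaling, 19 under quantile normalization and 26 under library total scaling, while every other alternative turned at most 4. The depth limits low genes most: 3 reads are 1.98 to 2.39 normalized counts in an untreated and 4.09 to 4.22 in an LPS library, so losses to a few counts have a size that cannot be told further.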

Other observations

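Several smaller groups were not described above. Among 48 F-box genes, 9 fell and 6 rose. *Fbxo32*, a ubiquitin ligase known from muscle atrophy and a target of FOXO factors, had 183 reads in the 3 untreated libraries and 0 in the 3 LPS libraries, a level at least 31.5-fold lower against a floor of 3 reads over the group. *Fbxo5*, an inhibitor of the anaphase-promoting complex, fell from 217 ± 35.8 to 13.9 ± 1.60 normalized counts. Among 17 semaphorins and plexins, guidance molecules that also act between leukocytes, 6 fell and 4 rose, with *Sema6d* (-2.36) and *Sema4b* (-1.80) lower and *Sema7a* (3.79) and *Sema4c* (3.04) higher. Of 43 ubiquitin specific proteases 10 rose and 4 fell, among them *Usp2*, which fell from 56.9 ± 7.57 to 9.66 ± 5.86 normalized counts.

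Of 36 genes of the unfolded protein response and heat shock, 5 fell and 4 rose. The sensors of the endoplasmic reticulum *Ern1* and *Eif2ak3* had log2 fold changes of -1.97 and -2.05, while the heat shock genes *Hspa1b* and *Hspa1a*, near-identical copies that can share reads, rose by 4.04 and 2.47. *Hsph1*, another heat shock gene, had -1.26, and the chaperone gene of the endoplasmic reticulum *Hspa5* 1.25. Of 70 genes of ribosome biogenesis 8 fell and 4 rose, and without LPS replicate 3 the lower count was 5. Of 26 genes of cholesterol synthesis 2 fell (1 without LPS replicate 1, 4 without untreated replicate 3). Scavenger and efferocytosis receptors counted 4 lower and 8 higher of 32. *Cd163*, the receptor for hemoglobin and haptoglobin, fell from 483 ± 150.4 to 79.2 ± 18.9 normalized counts, *Olr1*, a receptor for oxidised lipoprotein, rose from 3.63 ± 1.08 to 1023 ± 229.8 normalized counts, and *Tyro3*, a receptor for dying cells, rose from 7.05 ± 1.38 to 75.9 ± 5.67 normalized counts.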
